A study of Bos indicus with 8 samples.

Results

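Transcripts of the translation initiation and elongation factors were followed in cumulus cells, the somatic companions of the oocyte inside its follicle, cultured with or without adenosine. The members were the array probes whose platform gene symbol began with EIF1 to EIF6, EEF1 or EEF2. The rule gave 59 genes (88 probes) of the 15229 named genes on the array, and 56 of the 59 had a probe above the detection level. Cumulus-oocyte complexes, labelled Bos indicus, came from follicles of 3 to 6 mm in slaughterhouse ovaries. Both groups spent 6 h in medium containing FSH at 0.5 µg/ml (recombinant, human), oestradiol at 1 µg/ml, gentamicin, pyruvic acid at 0.2 mM and bovine serum at 10%. The treated group also received 3 mM adenosine, a purine nucleoside. RNA of 4 adenosine pools and 4 control pools, labelled as 10 per pool, was hybridised on 8 two-colour arrays, each same-numbered pair on 2 arrays with the dyes exchanged. The Cy5 orientation is the one in which adenosine RNA carried Cy5, and the Cy3 orientation its reverse. Nothing in the labels says that the pools came from separate animals, so the tests measure the spread between these pools, which may be technical. No sample from before culture was analysed here, so "rose" and "fell" mean a higher or lower level with adenosine than without it.

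Protein synthesis starts when eIF2, carrying GTP and the initiator tRNA, joins the small ribosomal subunit together with eIF1, eIF1A, eIF3 and eIF5. The cap-binding complex eIF4F, made of the cap-binding protein eIF4E, the scaffold eIF4G and the helicase eIF4A, brings this assembly to the mRNA, and eIF5B then joins the large subunit, which eIF6 holds apart until then. During elongation eEF1A delivers aminoacyl-tRNA, the eEF1B subunits reload it with GTP, and eEF2 moves the ribosome along. Initiation is slowed when a kinase phosphorylates the alpha subunit of eIF2, which then blocks its exchange factor eIF2B, or when 4E-binding proteins occupy eIF4E. The arrays measured transcripts only, and neither protein amount nor phosphorylation was measured.

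Most of the measured factors changed, in both directions. Of the 56 genes, 15 rose and 20 fell (limma, adjusted p under 0.05), so that 62.5% of them were called, beside 42.5% of the 12310 named genes tested. The members that rose made up 26.8% (21.7% of all genes rose) and those that fell 35.7% (20.8% of all genes fell). Under median centring of the arrays in place of loess normalization, all genes split into 1978 rises and 3295 falls in place of 2675 and 2561, and the members into 12 and 23. Without replicate 4, 9 members rose and 16 fell, beside 1492 and 1599 of all genes. In the fit that ignored the pairing 8 members rose and 14 fell, beside 1536 and 1855 of all genes. With a log2 ratio of at least 1 in size, 7 members fell and 1 rose (12.5% and 1.79% of them), beside 7.66% and 3.6% of all genes. The median log2 ratio was 0.03 over the members and 0.00336 over all tested genes. Adenosine and control pools had levels that did not overlap for 23 members, 41.1% of them, beside 31.1% of all genes. In the plot of all members by pair, initiation factors lay on both sides, most eIF3 and eEF1 genes lay to the right, and the largest falls were those of EIF4E, EIF6, EIF2AK3, EIF5, EIF2S2, EIF2S1 and EIF3J.

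**Figure D1:**
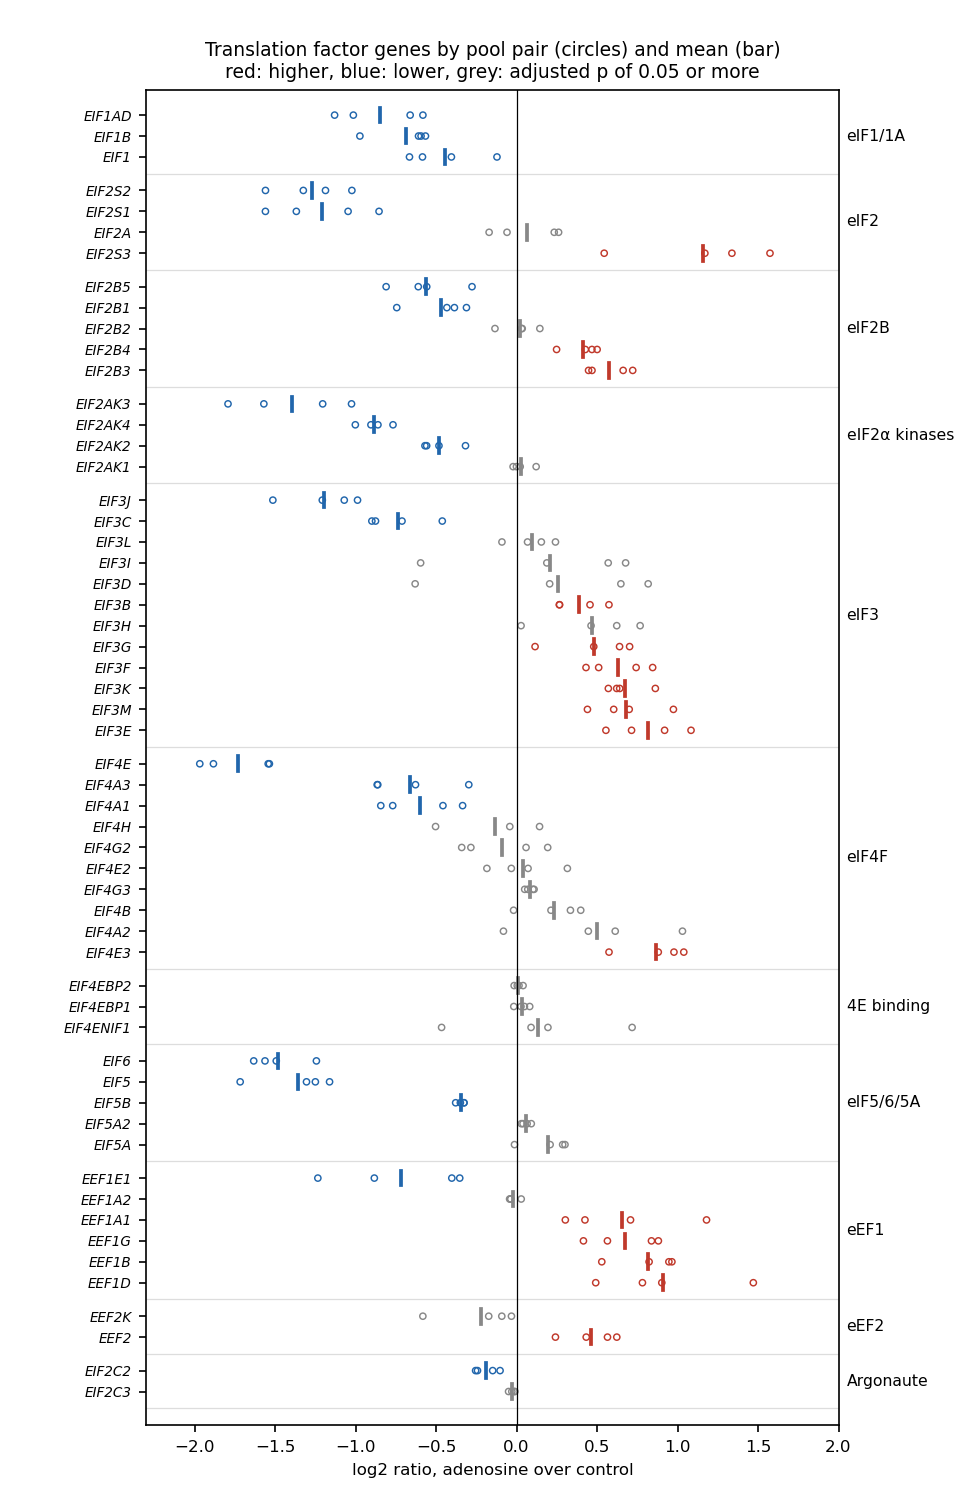
Log2 ratio of adenosine over control (x axis) for the 56 measured translation factor genes, grouped by role. Circles are the 4 pool pairs, bars their mean, and colours the limma call at an adjusted p of 0.05; 15 genes are red (higher), 20 blue (lower) and 21 grey.

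For pool pair 3, the array of the Cy3 orientation stood apart, with 45.4% of probes detected for adenosine and 41.3% for control, against 71.0% to 87.4% on the other arrays. With pool pair 3 read from its other array alone, 15 members rose and 19 fell, beside 2485 and 2428 of all genes. Of 12 cumulus and granulosa markers 11 were detected, and their summed linear level lay between 28930 and 37069 in the adenosine pools and between 41841 and 47930 in the control pools. Of these 4 rose and 2 fell, INHBA and KRT8. INHBA had ratios of -0.03 in the Cy5 orientation and -1.93 in the Cy3 orientation, and without it the sums overlapped, between 16833 and 22856 with adenosine and between 13994 and 21385 in control. FOXL2 and NR5A1 were near background and AMHR2 was not kept. Of 12 oocyte markers 11 passed and GDF9 did not. DAZL, NLRP5, OOSP1, ZP2 and ZP3 were close to background (mean log2 brightness under 6.6), so the sums hold background signal. The sums of the 11 oocyte markers lay between 1055 and 1128 with adenosine and between 1055 and 2427 in control. Control pool 2 stood apart in 3 of them, with log2 levels of 9.59 for BTG4 (6.26 to 6.38 in the other control pools), 8.90 for FIGLA (6.73 to 6.74) and 8.45 for ZP4 (6.28 to 6.37). Without replicate 2, 13 members rose and 17 fell, beside 2224 and 2076 of all genes. In that fit EIF2S3 (1.36), EIF3J (-1.09) and EIF2AK4 (-0.84) kept their calls. Blood and immune markers (5 of 7 kept) summed to between 573 and 1335 with adenosine and between 596 and 1749 in control. Among them HBB and CD3E were close to background. CD68 fell without overlap (-0.56 ± 0.21, limma adjusted p = 0.0113). Its log2 levels were 6.72 to 7.25 in control and 6.34 to 6.45, close to background, with adenosine. PTPRC, the brightest of the blood and immune markers, was not called. Over both groups its log2 levels were 7.71 to 8.66 in pools 1 and 2 and 9.62 to 10.44 in pools 3 and 4. Theca (2 of 3) and endothelial (2 of 4) markers stayed at or under 208 in either group. CYP17A1, PECAM1 and CDH5 were not kept, and VWF and TEK were close to background. The part of all these cell type markers in the results was not tested. In such bulk samples, fewer cells of a type and less RNA per cell cannot be told apart.

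EIF4E, the cap-binding protein itself, fell furthest. Its log2 level (a single-channel value after normalization) was 10.52, 10.64, 10.27 and 10.56 in control pools 1 to 4 and 8.64, 8.67, 8.73 and 9.03 in the adenosine pools. Every adenosine pool lay below every control pool. The fall was 3.32-fold (log2 ratio -1.73 ± 0.23, SD, n = 4 pool pairs, limma adjusted p = 0.0011), and the other probes of the gene gave -1.70 and -1.18. EIF4E3, a relative that also binds the cap, went the other way, from 7.46, 7.42, 7.49 and 7.57 in control to 8.03, 8.46, 8.37 and 8.55 with adenosine, again without overlap (log2 ratio 0.87 ± 0.21, limma adjusted p = 0.00375). EIF4E2, a cap-binding repressor, had a ratio of 0.04 (limma adjusted p = 0.747) and 3 probes between 0.03 and 0.04.

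Of the helicases, EIF4A1 fell and its close paralog EIF4A2 did not pass. EIF4A1 had pair ratios of -0.84, -0.33, -0.77 and -0.46 (mean -0.60 ± 0.24, limma adjusted p = 0.0142), but its pool levels overlapped and it did not pass without replicate 3 (-0.55, limma adjusted p = 0.0518) or replicate 4 (-0.65, limma adjusted p = 0.0548). EIF4A2 had pair ratios of 0.45, -0.08, 1.03 and 0.61 (mean 0.50 ± 0.46, limma adjusted p = 0.115). It was called higher under 4 of 17 alternative settings, among them without replicate 2 (0.70, limma adjusted p = 0.0401) and the authors' table (0.50, limma adjusted p = 0.0385). The coding sequences of the pair are alike, so their probes may share signal. EIF4A3, a helicase of the exon junction complex rather than of initiation, fell by 0.66 ± 0.27 on the log2 scale, and lost its call without replicate 1 (limma adjusted p = 0.0511) or replicate 4 (limma adjusted p = 0.0668).

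The scaffolds and 4E-binding proteins gave no call over all pairs, though some did under other settings. EIF4G2, a scaffold that lacks the eIF4E-binding site, had a very bright probe and a ratio of -0.09 ± 0.26 (limma adjusted p = 0.559), made of 0.69 in the Cy5 orientation and -0.88 in the Cy3 orientation. Each slide alone called it, in opposite directions. It was called lower with an offset of 0 (-0.49, limma adjusted p = 0.0138), under median centring (-0.33, limma adjusted p = 0.021) and in the authors' table (-0.42, limma adjusted p = 0.0123). EIF4G3 stood at 0.08, EIF4B, a helper of the helicase, at 0.23 and EIF4H, another helper, at -0.13 over 3 pool pairs, because the scanner had set aside its spot on an array of pair 2. The other EIF4H probe, dimmer and complete, gave 0.25 (limma adjusted p = 0.0355). EIF4B passed without replicate 3 (0.32, limma adjusted p = 0.0259) and on the slide of the Cy5 orientation alone (0.43, limma adjusted p = 0.047). EIF4G3, on a probe close to background, was called higher with an offset of 0 (0.25, limma adjusted p = 0.0311). The same held without the detection filter and on the slide of the Cy5 orientation alone. EIF4EBP1 and EIF4EBP2, the repressors that sequester eIF4E, had probes close to background (mean log2 brightness under 6.6) and ratios of 0.04 and 0.01, and EIF4ENIF1, which carries eIF4E into the nucleus, 0.13 ± 0.49. At the brightness of the EIF4EBP1 and EIF4EBP2 probes a change may not be detectable. In limma over all pairs 0 of these 3 passed, also at an unadjusted p under 0.05. Under median centring EIF4EBP1 was called higher (0.12, limma adjusted p = 0.0476). No probe carried the symbol EIF4G1, EIF3A or EEF1B2, and these symbols were not analysed here. EIF4E1B, a cap-binding protein known from oocytes, did not pass the filter: its brighter probe was detected in 3 of 8 adenosine channels and 5 of 8 control channels.

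The subunits of eIF2 moved apart. EIF2S1, the alpha subunit that the stress kinases phosphorylate, had log2 levels of 11.55, 11.61, 11.31 and 11.23 in control and 10.70, 10.05, 10.27 and 9.86 with adenosine. It fell 2.31-fold (log2 ratio -1.21 ± 0.32, limma adjusted p = 0.00455). EIF2S2, the beta subunit, fell 2.42-fold (-1.27 ± 0.23, limma adjusted p = 0.00198), with pair ratios of -1.19, -1.32, -1.56 and -1.02, and its dimmer probe gave -0.58. In contrast EIF2S3, the GTP-binding gamma subunit, rose 2.23-fold (1.16 ± 0.44, limma adjusted p = 0.0116), from 10.60, 11.61, 10.60 and 11.09 in control to 11.77, 12.16, 12.17 and 12.42. The groups did not overlap for any of the 3 subunits. The rise of EIF2S3 was smallest in pool pair 2 (0.54), whose control pool was the highest, and it did not pass without replicate 4 (1.10, limma adjusted p = 0.0642). EIF2A, a different protein that can also bring in initiator tRNA, had a ratio of 0.07 (limma adjusted p = 0.615), and under median centring -0.28 (limma adjusted p = 0.0415).

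Among the 4 kinases of eIF2 alpha, 3 fell (75%, beside 20.8% of all genes). EIF2AK3 (PERK), the sensor of unfolded proteins in the endoplasmic reticulum, stood at 8.40, 8.54, 8.77 and 9.15 in control and at 7.20, 6.97, 7.75 and 7.36 with adenosine, a fall of 2.63-fold (log2 ratio -1.40 ± 0.35, limma adjusted p = 0.00398). EIF2AK4 (GCN2), which senses uncharged tRNA, stood at 10.46, 10.21, 10.51 and 10.47 in control and at 9.56, 9.21, 9.74 and 9.61 with adenosine, and fell 1.84-fold with little spread between pairs (-0.88 ± 0.10, limma adjusted p = 0.000969). EIF2AK2 (PKR), activated by double-stranded RNA, fell by 0.48 ± 0.12 on the log2 scale (limma adjusted p = 0.00442). The adenosine pools lay below the control pools for all 3. EIF2AK1 (HRI), known as a haem sensor, had a ratio of 0.03 ± 0.06 (limma adjusted p = 0.521).

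The exchange factor eIF2B split by subunit. EIF2B5, the catalytic epsilon subunit, fell by 0.56 ± 0.22 (limma adjusted p = 0.013), and EIF2B1, the alpha subunit, by 0.47 ± 0.19 (limma adjusted p = 0.0148). EIF2B3, the gamma subunit that pairs with epsilon, rose by 0.58 ± 0.14 (limma adjusted p = 0.00408) and EIF2B4, the delta subunit, by 0.41 ± 0.11 (limma adjusted p = 0.00602). EIF2B2, the beta subunit, had a ratio of 0.02, and its other probes -0.06 and -0.03. Neither fall passed without replicate 3 (EIF2B5 -0.55, limma adjusted p = 0.0519, and EIF2B1 -0.48, limma adjusted p = 0.0516). Of the EIF2B5 probes, the dimmest stood at 0.00 (limma adjusted p = 0.922) and the middle one at -0.52. EIF2B5 did not pass in the authors' table (-0.34, limma adjusted p = 0.0606). Pool levels of EIF2B1, EIF2B3 and EIF2B4 overlapped between the groups. These genes lost their calls in the fit that ignored the pairing, where eIF2B had 0 rises and 1 fall. The rise of EIF2B4 did not pass under median centring (0.19, limma adjusted p = 0.0735), where EIF2B2 was called lower (-0.31, limma adjusted p = 0.0215) and eIF2B had 1 rise and 3 falls.

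**Figure D2:**
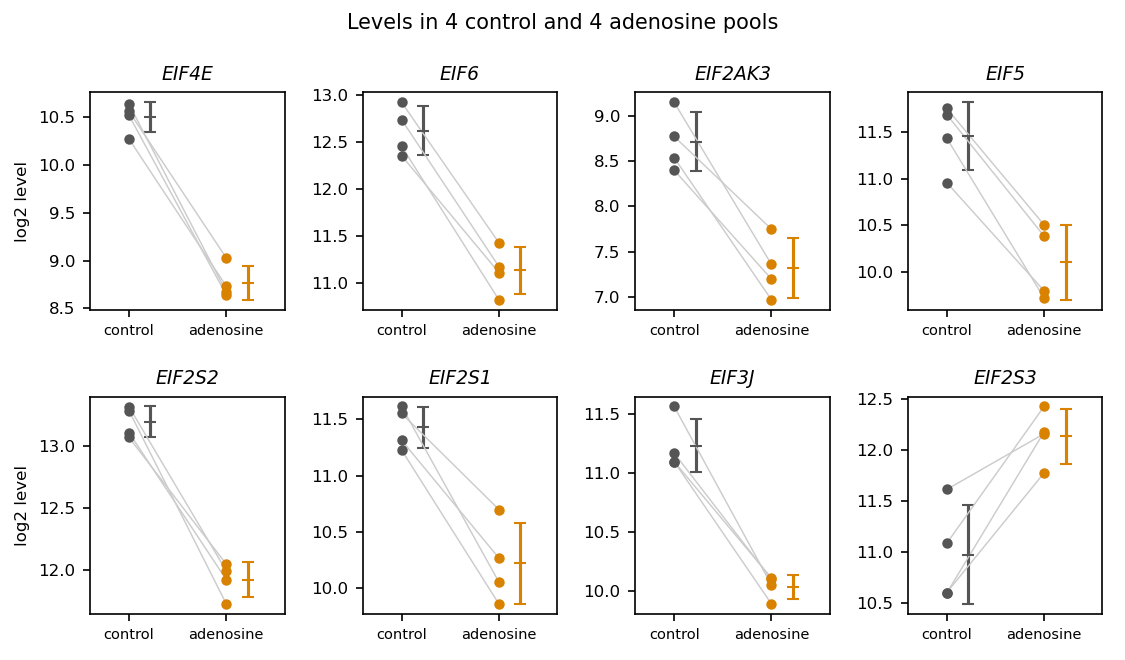
Normalized log2 level (y axis, own scale in each panel) of the 8 members called with a log2 ratio of at least 1 in size, in 4 control pools (grey) and 4 adenosine pools (orange). Points are pools, lines join same-numbered pools, and bars give mean and SD; the groups do not overlap in any panel, and EIF2S3 is the panel in which adenosine is higher.

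In the group of eIF5, eIF5B, eIF6 and eIF5A, 3 of 5 measured genes fell (60%, beside 20.8% of all genes) and 0 rose. EIF6, which keeps the large subunit from joining early and takes part in its maturation, stood at 12.45, 12.35, 12.74 and 12.92 in control and at 10.82, 11.11, 11.17 and 11.43 with adenosine. This was a fall of 2.79-fold (log2 ratio -1.48 ± 0.17, limma adjusted p = 0.000911), with -1.06 on the other probe. EIF5, the GTPase activator of eIF2, fell 2.56-fold (-1.36 ± 0.25, limma adjusted p = 0.00204) from 10.96, 11.44, 11.76 and 11.69 to 9.80, 9.72, 10.51 and 10.39, and its other probes gave -1.08 and -0.90. In both groups pools 1 and 2 were lower in EIF5 than pools 3 and 4, yet no adenosine pool reached a control pool. EIF5B, the GTPase of subunit joining, fell by only 0.34, with the narrow pair range of -0.38 to -0.33 (SD 0.02, limma adjusted p = 0.0015). EIF5B levels overlapped between groups, and it did not pass in the fit that ignored the pairing (limma adjusted p = 0.325).

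All 3 measured genes of the eIF1 group fell (100%, beside 20.8% of all genes), and 2 did without replicate 1, 2 or 3. On the slide of the Cy5 orientation alone 2 fell and 1, EIF1, was called higher. EIF1B, a close paralog of EIF1, had pair ratios of -0.97, -0.59, -0.57 and -0.61 (mean -0.69 ± 0.19, limma adjusted p = 0.00565), and EIF1AD, named for its eIF1A-like domain, -0.85 ± 0.27 (limma adjusted p = 0.00722). EIF1, which guards start codon choice, was called lower (-0.44 ± 0.24, limma adjusted p = 0.0316), but its bright probe gave 0.60 in the Cy5 orientation and -1.49 in the Cy3 orientation, and a dimmer probe of the gene -0.78 over both (limma adjusted p = 0.00365). The call on the bright probe was lost without replicate 1 (-0.46, limma adjusted p = 0.091), replicate 2 (-0.37, limma adjusted p = 0.0902) or replicate 3 (-0.40, limma adjusted p = 0.104). EIF1AY did not pass the filter. EIF5A, which helps ribosomes past difficult peptide bonds, had a ratio of 0.20 ± 0.14 (limma adjusted p = 0.0779), which missed the threshold over all pairs. It was called higher under 5 of 17 alternative settings, among them without replicate 1 (0.27, limma adjusted p = 0.018) and the authors' table (0.44, limma adjusted p = 0.00439). Its relative EIF5A2 was close to background, at 0.06.

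The eIF3 complex, the scaffold that holds the small subunit and the other factors together, had 6 rises and 2 falls among 12 measured subunits, with 4 not called. These are 50% and 16.7% of the subunits, beside 21.7% and 20.8% of all genes. EIF3E rose most, from 13.77, 13.89, 13.76 and 13.88 in control to 14.32, 14.61, 14.68 and 14.96 with adenosine (log2 ratio 0.82 ± 0.23, limma adjusted p = 0.0056). EIF3M (0.68 ± 0.22), EIF3K (0.67 ± 0.13) and EIF3F (0.63 ± 0.19) followed, with limma adjusted p of 0.00833, 0.00253 and 0.00702. The 4 probes of EIF3F all rose, by 0.25 to 0.67. Rises were smaller for EIF3G (0.48), which binds RNA, and EIF3B (0.39), a scaffold of the outer subunits. EIF3G lost its call without replicate 2 (limma adjusted p = 0.0953), replicate 3 (limma adjusted p = 0.0964) or replicate 4 (limma adjusted p = 0.127), and EIF3B without replicate 4 (limma adjusted p = 0.0718). The other EIF3G probe rose by 0.59 (limma adjusted p = 0.000914). Neither EIF3G nor EIF3B passed under median centring, where the complex had 4 rises and 2 falls, and in the fit that ignored the pairing it had 3 rises and 1 fall.

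The falls in eIF3 were those of EIF3J and EIF3C. EIF3J, a loosely attached subunit that sits in the mRNA channel, had log2 levels of 11.10, 11.56, 11.17 and 11.10 in control and 10.11, 10.05, 10.10 and 9.89 with adenosine. It fell 2.29-fold (log2 ratio -1.19 ± 0.23, limma adjusted p = 0.00236), in the opposite direction to EIF3E, EIF3F, EIF3K and EIF3M. EIF3C, a core subunit, fell by 0.74 ± 0.20 (limma adjusted p = 0.00524), and its dim probe stood at -0.05. By a grouping made after the values were seen, 4 of 7 measured subunits of the core octamer rose and 1 fell, against 2 and 1 of the 5 outer ones. EIF3D and EIF3I, both outer subunits, had ratios below 0 in pool pair 1 (-0.63 and -0.60) and above 0 in the other pairs, and neither passed (limma adjusted p = 0.503 and 0.545). EIF3H stood at 0.03 in pair 1 and at 0.47 over all pairs (limma adjusted p = 0.057). It was called higher under 5 of 17 alternative settings, among them without replicate 1 (0.62, limma adjusted p = 0.0157). EIF3L had a ratio of 0.09.

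In the eEF1 group 4 of 6 genes rose (66.7%, beside 21.7% of all genes) and 1 fell. The rises numbered 2 without replicate 2, without replicate 4 and on the slide of the Cy3 orientation alone. Subunits of the nucleotide exchange complex rose: EEF1D by 0.91 ± 0.41 (limma adjusted p = 0.0184), the gene that the array names EEF1B by 0.82 ± 0.20 (limma adjusted p = 0.00408) and EEF1G by 0.67 ± 0.22 (limma adjusted p = 0.00835). EEF1B had pair ratios of 0.53, 0.95, 0.82 and 0.97, and every adenosine pool lay above every control pool. EEF1G, from 12.29, 11.75, 11.32 and 11.09 to 12.86, 12.59, 11.73 and 11.97, overlapped between the groups but rose in each pair. EEF1D did not pass without replicate 2 (0.96, limma adjusted p = 0.0564) or replicate 4 (0.92, limma adjusted p = 0.0838).

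EEF1A1, the carrier of aminoacyl-tRNA, rose by a margin that 9 of 17 alternatives removed. Its pair ratios were 1.18, 0.71, 0.30 and 0.43 (mean 0.65 ± 0.39, limma adjusted p = 0.0395), and the call was lost without replicate 2 (0.64, limma adjusted p = 0.121), replicate 3 (0.77, limma adjusted p = 0.0522) or replicate 4 (0.73, limma adjusted p = 0.0989) and under 6 others. A dimmer probe of the gene rose by 1.11 (limma adjusted p = 0.00164). EEF1A1 has many processed copies in mammalian genomes, so its probes may share signal. EEF1A2, the isoform of muscle and neurons, was close to background (ratio -0.02). The fall in this group was that of EEF1E1, which despite its symbol belongs to the complex of aminoacyl-tRNA synthetases. It had pair ratios of -0.35, -1.23, -0.40 and -0.88 (limma adjusted p = 0.0373) and did not pass when any 1 replicate was left out (limma adjusted p between 0.0532 and 0.146).

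EEF2, the translocase, rose by 0.47 ± 0.17 (pair ratios 0.56, 0.43, 0.24 and 0.62, limma adjusted p = 0.0112), and without replicate 4 it stood at 0.41 (limma adjusted p = 0.0521). Its pool levels overlapped, and its dimmer probe gave 0.72 (limma adjusted p = 0.06). EEF2 also lost its call with an offset of 0 (limma adjusted p = 0.0509) and in the fit that ignored the pairing (limma adjusted p = 0.301). Its inhibitory kinase EEF2K had a ratio of -0.22 ± 0.25 (limma adjusted p = 0.184), below 0 in all 4 pairs and on all 8 arrays. The EEF2K pools fell into 2 levels in both groups, with pools 1 and 2 between 6.44 and 6.67 and pools 3 and 4 between 7.85 and 8.43.

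The prefix also took in Argonautes, small-RNA effectors whose old symbols begin with EIF2C and which are no translation factors in this sense. EIF2C2 fell by 0.19 ± 0.07 (limma adjusted p = 0.0205) on a probe close to background, and not without replicate 2, 3 or 4 (limma adjusted p between 0.0668 and 0.0751). EIF2C3 had a ratio of -0.03, and EIF2C1 was detected on no array. Without the Argonautes 15 of 54 members rose and 19 fell. Of 7 measured members with a mean log2 brightness under 6.6, EIF2C2 was the 1 that was called.

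The dye orientation changed the size of many ratios. Each orientation was on a slide of its own, so dye and slide cannot be told apart, and their equal mean is what the values above give. A fit of all 8 arrays with a dye term called an orientation difference for 33 of 56 members (58.9%), beside 47.5% of all genes. Ratios had the same sign in both orientations for 42 members, and 31 of the 35 called members had the same sign on all 8 arrays. The share of all genes for these counts is not given here. Calls came from the means of the same arrays, so sign agreement among called members is no separate support. The 8 members with a mean log2 brightness of 13 or more had a median ratio of 0.99 in the Cy5 orientation and 0.32 in the Cy3 orientation, and 7 of them had a called difference. The 48 others had medians of -0.05 and -0.02, and 26 had a called difference. EIF1 and EIF4G2 were the 2 members with every array of one orientation above 0 and every array of the other below (3.57%, beside 8.31% of all genes). The members called with a log2 ratio of at least 1 in size had the same sign in both orientations, at -1.77 and -1.69 for EIF4E and 1.15 and 1.17 for EIF2S3. Among them an orientation difference was called for EIF5 (-1.55 and -1.17), EIF2S2 (-1.42 and -1.13) and EIF3J (-1.08 and -1.31). The rises of the bright EIF3E (1.21 and 0.43), EIF3M (1.12 and 0.24), EEF1D (1.38 and 0.45) and EEF1A1 (1.18 and 0.13) were larger in the Cy5 orientation.

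**Figure D3:**
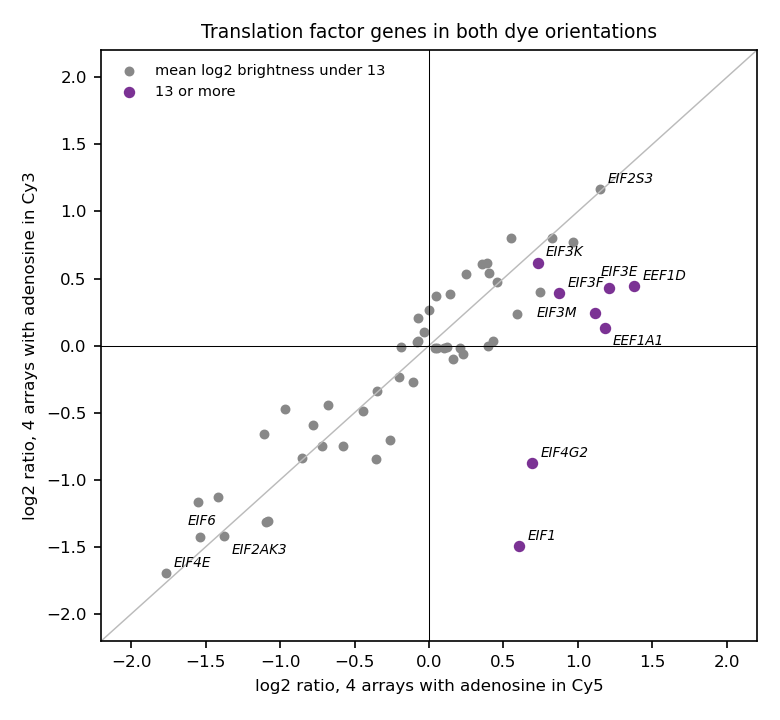
Mean log2 ratio of each of the 56 members on the 4 arrays of the Cy5 orientation (x axis) against the 4 of the Cy3 orientation (y axis), with the line of equality. The 8 members with a mean log2 brightness of 13 or more (purple) all lie below the line, and EIF1 and EIF4G2 have opposite signs.

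Other genes of translation, outside the members, gave 9 rises and 17 falls among 44 measured (20.5% and 38.6%, beside 21.7% and 20.8% of all genes). Factors of termination, ribosome recycling and rescue had 5 falls and 1 rise among 8 (62.5% and 12.5%, beside 20.8% and 21.7% of all genes). GSPT1 (eRF3), the GTPase of termination, fell 2.99-fold (pair ratios -1.46, -1.64, -1.65 and -1.58, limma adjusted p = 0.000364), ETF1 (eRF1), which reads the stop codon, 2.92-fold, ABCE1, which splits the ribosome, 3.42-fold and PELO, which rescues stalled ribosomes, 4.14-fold. GSPT2, a relative of GSPT1, had a ratio of -1.45 ± 0.58. MCTS1, a re-initiation factor, rose 2.19-fold.

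Genes around eIF2 phosphorylation fell in 6 of 9 cases and 1 rose (66.7% and 11.1%, beside 20.8% and 21.7% of all genes). The falls numbered 5 without replicate 2 or replicate 4, without the detection filter and in the fit that ignored the pairing. PPP1R15B, a partner of the phosphatase that reverses the phosphorylation, fell 12.7-fold (pair ratios -3.29, -3.98, -3.36 and -4.04, limma adjusted p = 0.000775), and PPP1R15A, its stress-inducible counterpart, had a ratio of -0.15 (limma adjusted p = 0.104). The transcription factor ATF4, whose translation the phosphorylation favours, had pair ratios of -2.62, -1.13, -0.85 and -0.90 (mean -1.38 ± 0.84, limma adjusted p = 0.0417). ATF4 levels overlapped between the groups. DDIT3 (-2.14), TRIB3 (-1.93) and ASNS (-1.84), known targets of ATF4, also fell. DNAJC3, an inhibitor of PERK, fell by 1.11 and IMPACT, an inhibitor of GCN2, rose by 1.12.

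PPP1R15A, PABPC4, MTOR, DPH2, DPH5, DHPS, MTIF2 and MTIF3 were picked out after their values were seen. Of 13 genes for poly(A) binding proteins and cap or mTOR regulators 1 rose and 4 fell (7.69% and 30.8%, beside 21.7% and 20.8% of all genes). Under median centring or with a normexp offset of 0, 7 fell. The helicase DDX3X fell by 1.77, RPS6KB1, a kinase downstream of mTOR, by 1.02, PDCD4, an inhibitor of eIF4A, by 0.86 and MTOR by 0.40, while PABPC4 rose by 0.87. Of 5 genes that modify eIF5A or eEF2, 2 rose and 2 fell (40% each way, beside 21.7% and 20.8% of all genes). DPH3, a diphthamide synthesis factor for eEF2, fell 5.09-fold and DPH2 by 0.52. In contrast DPH5 rose by 0.80 and DHPS, which starts hypusine synthesis on eIF5A, by 0.59. Mitochondrial translation factors had 4 rises and 0 falls among 9 (44.4% and 0%, beside 21.7% and 20.8% of all genes). The rises were those of GUF1 (1.09), MTIF2 (0.53), GFM1 (0.51) and MTIF3 (0.46). In limma over all pairs 0 passed as a fall at an unadjusted p under 0.05, and under median centring there were 3 rises and 1 fall.

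**Figure D4:**
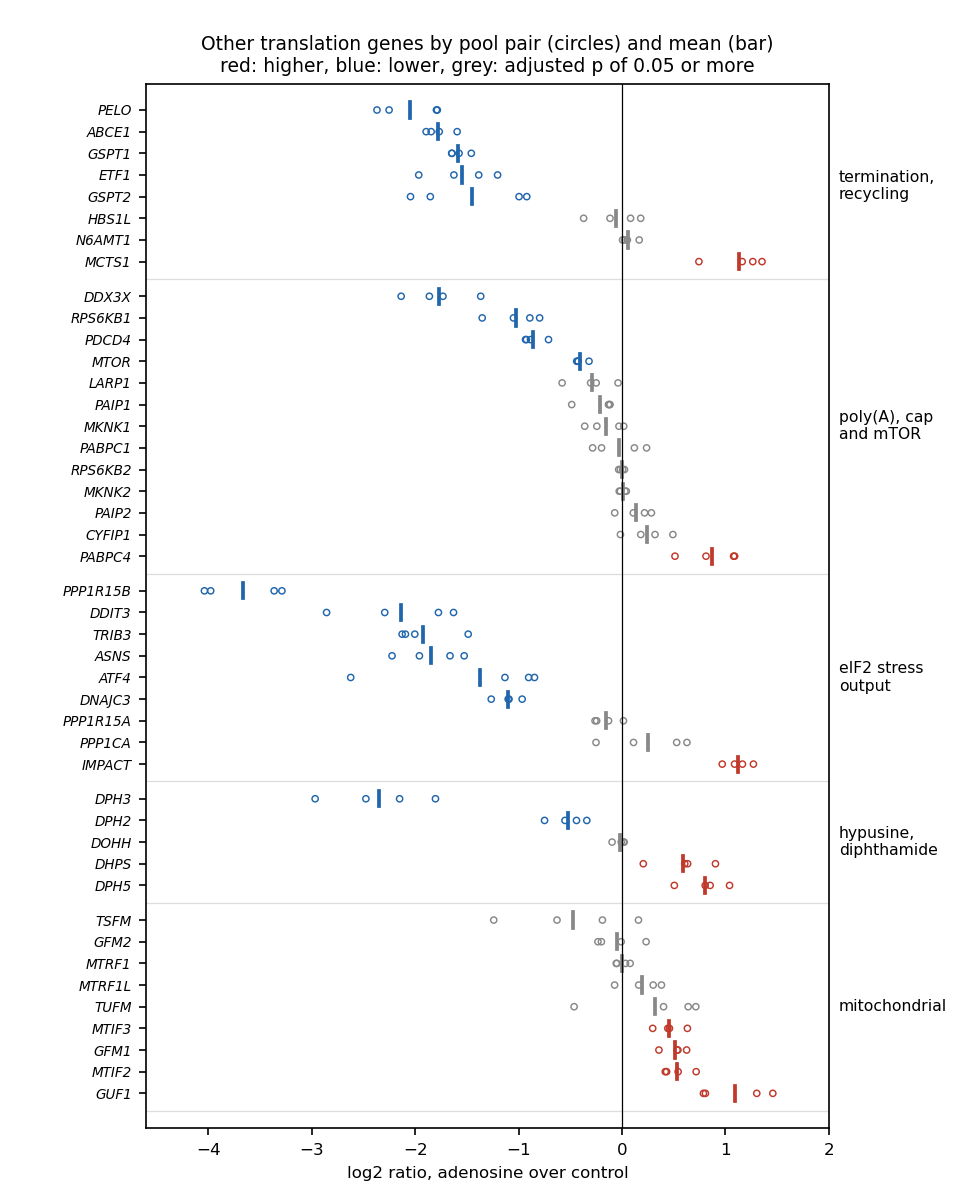
Log2 ratio of adenosine over control (x axis) for 44 translation genes outside the members, in 5 groups by function. Circles are the 4 pool pairs, bars their mean and colours the limma call. The termination and recycling group has 5 blue genes and 1 red of 8, and the mitochondrial group 4 red and 0 blue of 9. Of all tested genes, 20.8% were called lower and 21.7% higher.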

How the data were processed

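Total RNA of cumulus cells went through 2 rounds of T7 amplification before dye labelling, per the labels' protocols. Per the file headers, the authors deposited for each of 45220 spots a raw mean intensity and a median local background intensity, in a green channel read here as Cy3 and a red one read as Cy5. The sources used here do not name the scanner software. The authors' value table holds log2 ratios per probe, and how the authors corrected and centred them was not given in the sources used here. Set against the scanner ratios, it ran as adenosine over control on all 8 arrays (slope 1.06 to 1.09, medians 0.00566 to 0.0524), and it served as an alternative. A further normalized table of these arrays was not used.

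In R 4.3.3 with limma 3.58.1, intensities were background corrected (normexp, offset 50) and loess normalized within arrays. Control spots had weight 0, and the 9 to 29 spots per array that the scanner had set aside were left out. The 2 arrays of a pool pair were averaged, and the 4 pair means were tested against 0 (lmFit, eBayes, two-sided, Benjamini-Hochberg over 31923 kept probes, threshold 0.05). A probe was kept if it exceeded the mean plus 2 SD of 153 negative control spots on both arrays for 3 or more of a group's 4 pools. Each gene is shown by its brightest kept probe, and pool levels are single-channel values after Aquantile normalization. The number of pool pairs, 4, limits the precision. Same-numbered arrays deviated together (correlation 0.784 to 0.933, at most 0.230 with another number), so they were taken as the same RNA, as the dye swap in the labels implies.

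The members and lists were chosen with earlier results of these data known. Every measured member could be named, with values per pair or pool for called members with a log2 ratio of at least 1 in size, the called member with the smallest p in each direction of each role, and a core list. Other translation genes were named if called with such a ratio, or as the called gene with the smallest p of a list. Gene symbols come from GEO's platform annotation, which is old: 21790 of 43794 probes had 1 symbol and 22004 had none, and 52 of the 59 member symbols were in a current RefSeq gene table. Sequences and the planned promoter motif search were not used here. The procedure was tested on simulated data. Alternatives covered background correction, normalization, the filter, the probe rule, the authors' table, the pairing, each slide alone and leaving out replicates.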

Additional observations from a re-analysis of the deposited data

Results flagged for a closer look

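In 7 of 165 groups of 4 values (adenosine levels, control levels and pair ratios of each member with a value in every pair), 1 value lay far from the other 3, by Dixon's test. Chance gives about 1 in 20 such groups. EIF1B had a ratio of -0.97 in pool pair 1, against -0.61 to -0.57 in the others, and all 4 lay below 0. EIF3J stood at 11.56 in control pool 2 (11.10 to 11.17 in the others), and EIF2AK4 at 10.21 in control pool 2 (10.46 to 10.51). EIF4E2 stood at 10.48 in control pool 1 (10.14 to 10.19), and EIF4G2 at 14.59 in adenosine pool 4 (14.39 to 14.41). EEF1A2, close to background, stood at 6.23 in adenosine pool 1 (6.28 to 6.29) and had a ratio of 0.029 in pool pair 2 (-0.04 in the others).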

How the results depend on the processing

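Of the 35 calls, 14 passed in the same direction under all 17 alternatives and 22 under every omission of 1 replicate. Leaving out 1 replicate gave 9 to 17 members higher (9 without replicate 4) and 14 to 17 lower, and over all genes 1492 to 2288 higher and 1599 to 2217 lower. The fit on single channels with the replicate block gave 15 higher and 20 lower. Without the block 8 members were higher and 14 lower, and over all genes 1536 were higher and 1855 lower. Over the members and alternatives, 58 values lost a call, 26 gained one in the same direction and 5 turned sign with a call before or after. These were EIF1 (0.60) and EIF4G2 (0.69) on the slide of the Cy5 orientation alone, EIF2A (-0.28) and EIF2B2 (-0.31) under median centring, and EIF4H (0.25) under the stricter detection filter, which reads another probe. The members' median of 0.03 was -0.071 with an offset of 0, -0.13 under median centring, -0.012 on the Cy3 orientation's slide alone and 0.11 in the authors' table, with 0.02 to 0.04 when a replicate was left out. The cause of these shifts was not tested. Signal over background limits the 7 dimmest members, under a log2 brightness of 6.6.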
